A study of Mus musculus with 12 samples.

Results

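The 40 genes described here carry out the unfolded protein response and the integrated stress response of the liver. They were listed by role in 6 groups, namely chaperones and folding enzymes of the endoplasmic reticulum (ER), ER-associated degradation, stress sensors and transducers, the factors of the ATF4 axis, the feedback and stress effectors downstream of it, and enzymes and a cystine transporter that ATF4 is known to induce. Each gene was read through the array feature of highest mean signal that carries its symbol and no other gene's. A feature of that kind was found for 38 of the 40, out of 30702 genes measured that way. The features for Pdia4 and Manf are shared with another gene, so these genes are not described.

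Livers of 12 mice of the C57BL6/J strain, aged 12 weeks, were each hybridised to an Affymetrix transcriptome array. Of these, 6 were wild type (WT, ENT3 +/+) and 6 were knockout (KO, ENT3 -/-) for the nucleoside transporter ENT3, encoded by Slc29a3. The titles carry the letters M and F, read here as male and female because the mice are described as matched for gender, which gives 3 mice in each of 4 groups. No treatment is named. The sources used here do not say how the allele was made or whether the mice were littermates. The p-values set each difference against the spread between mice within the 4 groups, and they speak only for these 12 livers.

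Proteins that fold poorly in the ER engage the sensors IRE1, PERK and ATF6. IRE1 splices the message of Xbp1, ATF6 is cleaved to an active factor, and both raise transcription of chaperones and of the machinery that returns misfolded proteins to the cytosol for degradation. PERK, together with kinases that sense lack of amino acids, haem or the presence of viral RNA, phosphorylates eIF2, which slows translation while favouring that of ATF4. ATF4 and its partners then drive genes of amino acid supply, and CHOP (Ddit3), Trib3, Chac1 and Ddit4 are among its stress targets. In the liver, whose hepatocytes secrete most plasma proteins, the chaperones are abundant at rest. Splicing, cleavage and phosphorylation were not measured by these arrays, only the level of each transcript.

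The promoters show which of these genes hold the letters of the known response elements. A promoter window from RefSeq, 250 bases before to 50 after the start in build GRCm38.p6, was found for 35 of the 38 genes. The ER stress element, CCAAT and CCACG with a spacer of 9 free bases between them, searched on both strands, was present in 9 of 35 genes (25.7%) and in 0.119% of all 32851 windows of that length. Its holders were 7 chaperone or folding genes (Hspa5, Hsp90b1 with 2 sites, Calr, Canx, Pdia6, Dnajc3 and Creld2) and 2 degradation genes (Syvn1 and Derl3). The second form of the element, ATTGG and CCACG with 1 free base between them, was found in Herpud1 and Dnajb11 (5.71%, against 0.0365% of all windows). The core of the amino acid response element, TGATGNAAN, bound by ATF4 with a partner, was found in 7 genes (20%, against 3.95%), namely Herpud1, Atf3, Trib3, Chac1, Nupr1, Asns and Slc7a11. The unfolded protein response element TGACGTGG was in 0 of the 35, against 0.676% of all windows. Counted per gene, as for the members, the shares over all 27025 genes with a window were 0.137%, 0.0444%, 4.5% and 0.714% in this order. A match describes letters only, and its absence says nothing about a factor. No match overlapped another in these windows.

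The ER stress element sites not contained in the windows printed further on are given 5′ to 3′ in motif orientation, so that the capitals mark the letters the element fixes and the lower case its spacer. They lay between 80 and 212 bases before the start.
Calr, chr8:84847075-84847093, minus-strand gene: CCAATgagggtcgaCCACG
Canx, chr11:50325800-50325818, minus-strand gene: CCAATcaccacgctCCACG
Creld2, chr15:88819520-88819538, plus-strand gene: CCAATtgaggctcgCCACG
Derl3, chr10:75893242-75893260, plus-strand gene: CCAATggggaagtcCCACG
Dnajc3, chr14:118937827-118937845, plus-strand gene: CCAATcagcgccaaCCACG
Hsp90b1, chr10:86705533-86705551, minus-strand gene: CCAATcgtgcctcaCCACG
Hsp90b1, chr10:86705638-86705656, minus-strand gene: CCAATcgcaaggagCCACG
Pdia6, chr12:17266491-17266509, plus-strand gene: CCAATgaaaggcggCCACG

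Windows are given for the BiP gene Hspa5, for a degradation gene with the second form of the element (Herpud1), for the degradation gene with the element that passed the test (Syvn1), for a gene with the amino acid core that passed it (Chac1), and for the genes with the largest rise (Ddit4) and the largest fall (Shmt2). They are the 250 bases before the start, read 5′ to 3′ on the strand of the gene, from RefSeq in GRCm38.p6: Hspa5 at chr2:34771840-34772089 (plus strand), Herpud1 at chr8:94386179-94386428 (plus strand), Syvn1 at chr19:6046326-6046575 (plus strand), Chac1 at chr2:119350992-119351241 (plus strand), Ddit4 at chr10:59951771-59952020 (minus strand), Shmt2 at chr10:127522445-127522694 (minus strand). Capitals mark a whole match, spacer included, and the amino acid core of Herpud1 and of Chac1 lies on the opposite strand. Ddit4 and Shmt2 hold none of the 4 motifs in this stretch.
Hspa5: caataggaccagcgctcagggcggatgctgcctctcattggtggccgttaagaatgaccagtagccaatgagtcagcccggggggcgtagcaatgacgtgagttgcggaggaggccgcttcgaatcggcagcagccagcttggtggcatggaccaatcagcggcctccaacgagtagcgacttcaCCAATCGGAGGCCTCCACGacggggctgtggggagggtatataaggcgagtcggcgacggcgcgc
Herpud1: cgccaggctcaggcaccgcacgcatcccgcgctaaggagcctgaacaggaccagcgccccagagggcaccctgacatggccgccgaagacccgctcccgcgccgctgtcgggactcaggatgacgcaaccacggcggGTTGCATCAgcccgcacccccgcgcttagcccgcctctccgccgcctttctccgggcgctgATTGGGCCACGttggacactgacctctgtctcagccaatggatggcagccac
Syvn1: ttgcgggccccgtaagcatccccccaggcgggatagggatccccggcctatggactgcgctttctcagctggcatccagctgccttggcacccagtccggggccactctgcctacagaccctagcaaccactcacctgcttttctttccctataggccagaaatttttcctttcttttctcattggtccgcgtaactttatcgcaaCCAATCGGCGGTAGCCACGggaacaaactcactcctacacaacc
Chac1: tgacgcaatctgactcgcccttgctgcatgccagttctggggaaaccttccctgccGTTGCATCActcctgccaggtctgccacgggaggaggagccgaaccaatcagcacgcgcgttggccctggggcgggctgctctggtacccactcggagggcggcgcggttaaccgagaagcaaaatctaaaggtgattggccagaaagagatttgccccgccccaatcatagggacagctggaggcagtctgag
Ddit4: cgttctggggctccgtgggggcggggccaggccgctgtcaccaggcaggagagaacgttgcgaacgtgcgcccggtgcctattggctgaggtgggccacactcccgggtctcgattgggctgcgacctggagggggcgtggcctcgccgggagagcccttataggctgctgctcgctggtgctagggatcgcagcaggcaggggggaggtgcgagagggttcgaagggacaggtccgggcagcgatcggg
Shmt2: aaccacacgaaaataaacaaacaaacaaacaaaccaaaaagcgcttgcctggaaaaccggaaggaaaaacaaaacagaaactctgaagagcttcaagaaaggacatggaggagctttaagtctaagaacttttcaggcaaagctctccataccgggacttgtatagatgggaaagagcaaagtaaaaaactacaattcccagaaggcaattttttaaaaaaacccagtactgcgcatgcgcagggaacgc

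Over the whole series, values are deposited log2 signals, in which array medians lay between 3.76 and 3.89. A gene is called dim in a group where all 3 mice lay at or below the 95th percentile of the negative controls on their own arrays. This percentile was 6.20 to 6.39 on WT and 6.40 to 6.83 on KO arrays, so the level that marks a dim gene was higher in KO. Slc29a3 was lower in every KO than in every WT array (-0.94 ± 0.07 log2, SE), although its signals were dim in all groups. Exocrine pancreas markers (9 of 10 measured) had a summed level of 15.30 in WT female 25 and 13.48 in WT female 27, against 7.50 to 7.77 on the other 10 arrays. The summed level of the 10 neutrophil markers was 7.62 to 8.62 in WT and 9.73 to 16.95 in KO, with 4 of the 10 dim in every group. That of the 10 macrophage and Kupffer cell markers was 11.67 to 13.28 in WT and 13.86 to 18.53 in KO, with no marker dim in every group. The sum of 6 endothelial markers was 12.30 to 13.10 in KO females and 10.86 to 11.91 in the other groups. Over all arrays 3 of these 6 were called higher and 2 lower. The sum of 6 stellate cell markers, 3 of them dim in every group, was 14.26 to 14.85 in KO females and 13.06 to 13.97 in the other groups. The part of these sums in the results was not tested. The mean of the poly-A spikes, RNA added at labelling, was 5.98 to 6.81 in WT and 5.10 to 6.06 in KO. Hepatocyte markers were high on all arrays, with a summed level of 22.48 to 22.52 and a median difference of 0. Most lay at the shared ceiling of 19.93, so they cannot show a change in hepatocyte share. Of the plasma cell and B cell markers measured, 8 of 9 were dim in every group. In a whole liver, a lower share of a cell type and less RNA per cell cannot be told apart.

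In KO livers the stress response genes differed in direction. Over all 12 arrays 2 members rose, Ddit4 and Chac1, and 4 fell, Shmt2, Atf5, Ern1 and Syvn1, while 32 did not pass the test (limma, Benjamini-Hochberg adjustment over all 65956 features, threshold 0.05). Among all genes 5.81% were called higher and 8.25% lower, against 5.26% and 10.5% of the 38 members, so these shares were near the background. Among genes with mean signal above the negative controls 11.8% were called higher and 24.2% lower, against 4.35% and 8.7% of the 23 members of that kind. An unadjusted p under 0.05 was reached by 15 of the 38 (28.6% of all genes). The median difference of the members was -0.10, beside 0.03 over all genes and -0.09 over the 6662 genes with mean signal above the negative controls. Of the members, 10 were dim in all 4 groups and 23 had a mean signal above the negative controls. With the poly-A spike mean as a covariate 0 of the 38 and 3 of all 65956 features were called over all arrays. Without WT females 25 and 27 together, Atf5 and Shmt2 were called over all arrays and Shmt2 within females. Without KO male 19, 7 members fell, Dnajb9, Hyou1 and Herpud1 being added, and without WT male 33, WT female 27 or KO female 40 the number was 2.

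More members were called within females than within males. Within males 1 member fell (Shmt2) and 0 rose, where 0.945% of all genes were called lower and 0.72% higher. In males 5 members had an unadjusted p under 0.05, 2 higher and 3 lower, and in females 15 did, 4 higher and 11 lower. The share of all genes under this threshold within each sex was not computed, so these counts have no background beside them. Over all 12 arrays that share was 28.6%. Within females 7 members fell (Shmt2, Ern1, Herpud1, Hyou1, Atf5, Dnajb9 and Sel1l) and 0 rose, where 5.7% of all genes were called lower and 3.63% higher. Among genes with mean signal above the negative controls 18.3% were called lower in females, against 6 of 23 members of that kind (26.1%). A difference between the sexes in the effect of the knockout was called for 0 members and 0% of all genes by limma, although 9 members had an unadjusted p under 0.05 (7.03% of all genes). A call in females alone is therefore not a call that the sexes differ. The 7 calls in females became 10 without KO male 19, 4 without WT female 27 or KO female 40, 3 without WT female 38 or KO female 13, and 2 without KO female 69. Shmt2 in males was not called when any 1 male, KO female 13 or KO female 69 was left out.

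**Figure D1:**
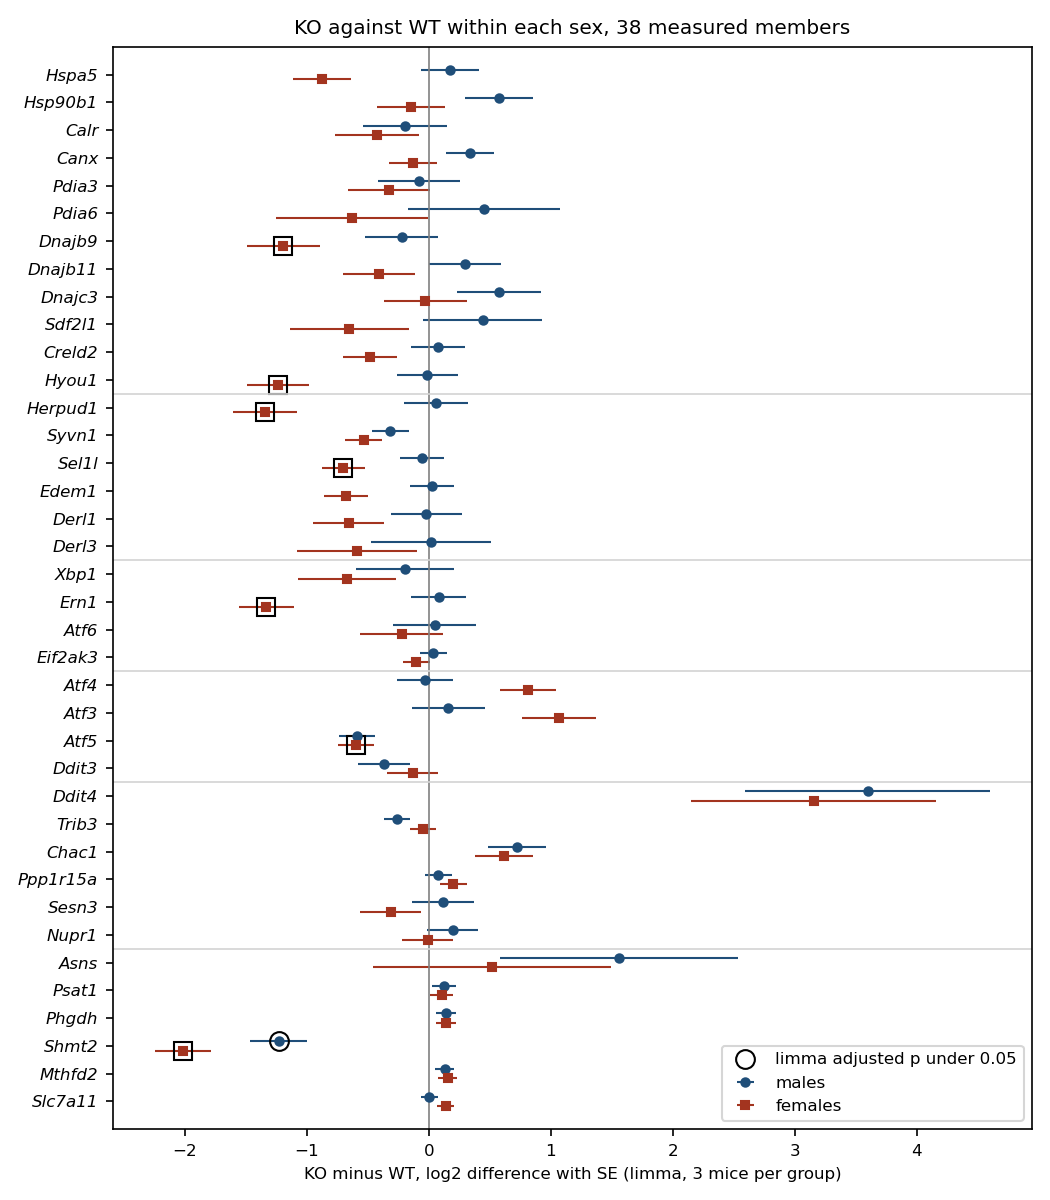
KO minus WT log2 difference with its SE from limma (horizontal axis) for the 38 measured members (vertical axis, grouped by role between grey lines), males as circles and females as squares, with 3 mice per group; open outlines mark a limma adjusted p under 0.05. In females all 18 chaperone and degradation genes, from Hspa5 to Derl3, lie below 0, while in males 11 of the 18 lie above 0; Ddit4 lies far to the right in both.

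Of the 12 ER chaperones and folding enzymes measured, Dnajb9 and Hyou1 fell in KO females and none passed in males. All 12 had a female difference below 0, from -1.24 to -0.03 with a median of -0.45, and 8 of 12 had a male difference above 0 (42.9% of genes above the negative controls), with a median of 0.24. That male median was 0.46 without KO male 18, 0.09 without WT male 23 and 0.0087 without KO male 19. The 2 calls in females are 16.7% of the 12, near the 18.3% of genes above the negative controls called lower there. Over all 12 arrays 0 passed by limma, where 2 had an unadjusted p under 0.05, Dnajb9 and Hyou1. Both were called lower over all arrays under median centring, the low-signal filter and array weights.

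Hspa5 encodes BiP, the ER chaperone that holds the sensors inactive. Its log2 signals were 12.69, 12.19 and 12.93 in WT males and 12.38, 13.11 and 12.84 in KO males. In females they were 12.87, 13.21 and 13.25 in WT and 12.54, 11.97 and 12.18 in KO. The KO females lay below all WT females, and the males overlapped. The difference was -0.88 ± 0.24 (SE) in females (limma adjusted p = 0.0589) and 0.17 ± 0.24 in males (limma adjusted p = 0.852), so neither passed.

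Hyou1 encodes a large ER chaperone that exchanges nucleotide on BiP. Its signals were 8.54, 8.62 and 8.78 in WT females and 7.49, 7.30 and 7.44 in KO females, and 8.23, 7.96 and 8.55 in WT males and 7.56, 8.58 and 8.58 in KO males. The female groups stood well apart, while among males only KO male 18 was low. Hyou1 fell in females by 1.24 ± 0.25 (SE), 2.35-fold lower (limma adjusted p = 0.0209), and the male difference was -0.01 ± 0.25 (limma adjusted p = 0.998). The call in females held in 7 of the 12 fits without 1 mouse and was lost without WT female 27, WT female 38 or any 1 KO female. The difference between the sexes had an unadjusted p of 0.00642 and a limma adjusted p of 0.498.

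Dnajb9 encodes ERdj4, a co-chaperone that targets misfolded proteins for degradation and restrains IRE1. WT females read 12.28, 12.35 and 12.56 and KO females 11.56, 10.66 and 11.39, without overlap. WT males read 11.53, 12.00 and 11.95 and KO males 11.37, 12.26 and 11.18, which overlapped. The fall in females was 1.19 ± 0.30 (SE; limma adjusted p = 0.0439), and this call was held in 2 of the 12 fits that left out 1 mouse.

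The remaining chaperones were not called in any comparison. Their female differences ran from -0.65 in Sdf2l1, a subunit of a BiP co-chaperone complex, to -0.03 in Dnajc3, a co-chaperone that also inhibits eIF2 kinases. Calr and Creld2 had female groups that did not overlap, with KO lower, as had 5 of the 12 chaperones in all (13.7% of all genes). Shares of genes without overlap, here and below, are over all genes and were not computed for genes above the negative controls. Calls lower in females were more common among the latter, 18.3% against 5.7% of all genes. Canx, the membrane-bound lectin chaperone, differed by -0.13 ± 0.20 in females and 0.34 ± 0.20 in males. Hsp90b1 (GRP94) differed by -0.15 ± 0.28 and 0.57 ± 0.28, and Pdia6, a disulfide isomerase, by -0.63 ± 0.62 and 0.46 ± 0.62.

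The KO males were not alike. KO male 19 was the highest of the 3 KO males for 10 of the 12 chaperones, against 48.2% of genes above the negative controls. KO male 18 was the lowest for 11, and the share of genes for this was not computed. Both were true at once for 9, against 21.6% of genes above the negative controls. The median deviation of the 12 chaperones from the WT mean of the same sex was 0.65 in KO male 19, 0.32 in KO male 39 and -0.43 in KO male 18. It was -0.52, -0.27 and -0.51 in KO females 13, 40 and 69, and -0.32 to 0.19 in the WT mice. KO male 18 thus lay among the KO females on this measure, and KO male 19 lay above every other mouse. KO male 18 also had the highest neutrophil marker sum of the KO males, 16.91, against 13.64 in KO male 19 and 9.73 in KO male 39; its part in the result was not tested.

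**Figure D2:**
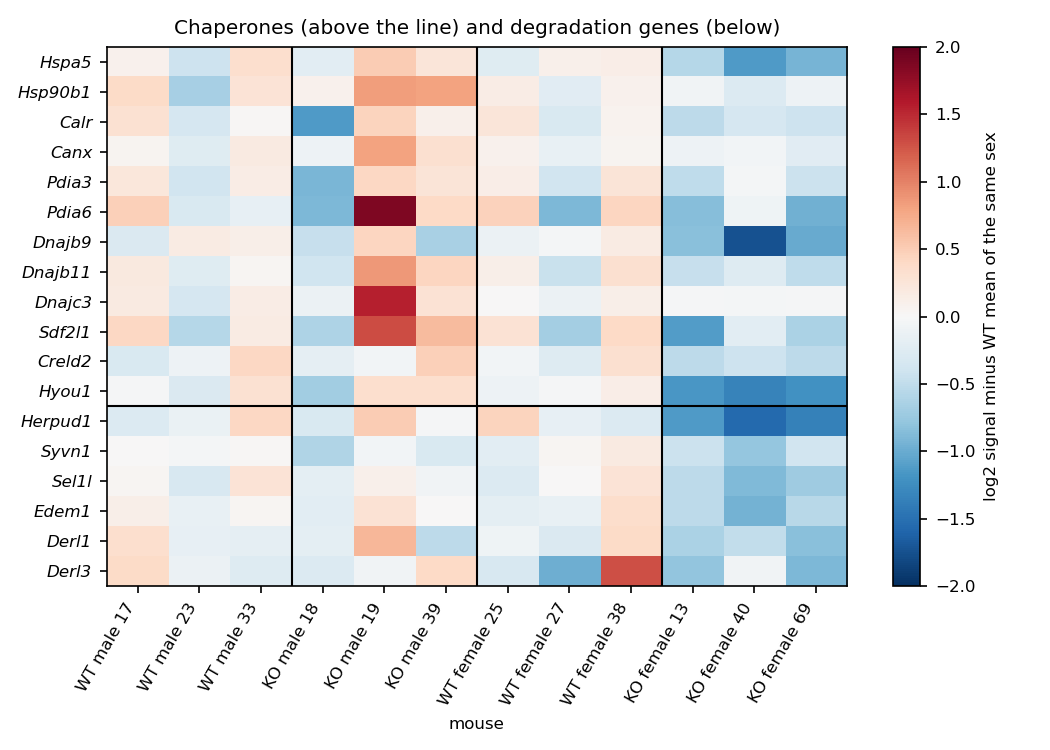
Heat map of log2 signal minus the WT mean of the same sex (colour, from -2 blue to 2 red) for the 12 chaperone genes above the line and the 6 degradation genes below it, 1 column per mouse. The KO female columns are blue for nearly all genes, most deeply for Hyou1 and Herpud1, and KO male 19 is red for most chaperones while KO male 18 is mostly blue.

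Of the 6 genes of ER-associated degradation measured, Herpud1 and Sel1l fell in females (33.3%, against 18.3% of genes above the negative controls). Only 4 of the 6 had a mean signal above the negative controls. Syvn1 fell over all arrays (16.7%, against 8.25% of all genes and 24.2% of genes above the negative controls). The female differences of the 6 ran from -1.34 to -0.53 with a median of -0.67, and the male median was 0.00. In 5 of 6 the KO females lay below the WT females without overlap, as in 13.7% of all genes. An unadjusted p under 0.05 over all arrays was reached by 4 of the 6.

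Herpud1 encodes the ER membrane protein HERP, which assembles the degradation complex, and is among the most inducible targets of the response. Its signals were 16.36, 15.75 and 15.64 in WT females and 14.79, 14.37 and 14.57 in KO females. In males they were 16.31, 16.45 and 16.996 in WT and 16.29, 17.09 and 16.56 in KO. KO females were the 3 lowest of all 12 mice, and the male genotypes overlapped throughout. Herpud1 fell in females by 1.34 ± 0.26 (SE), 2.54-fold lower (limma adjusted p = 0.0171; held in 11 of the 12 fits without 1 mouse), and the male difference was 0.06 ± 0.26. Averaged over the genotypes, Herpud1 was lower in females than in males, by -1.37 log2 (limma adjusted p = 0.0126). Of all genes 0.98% were called lower and 1.07% higher in females. This average includes the fall in KO females. The means were 16.58 in WT males and 15.92 in WT females, and 16.64 in KO males and 14.58 in KO females. The difference in knockout effect between the sexes had a limma adjusted p of 0.427.

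Sel1l, the adaptor of the ubiquitin ligase HRD1, read 10.93, 11.21 and 11.47 in WT females and 10.68, 10.32 and 10.50 in KO females. In males it read 11.14, 10.77 and 11.38 in WT and 10.90, 11.20 and 11.02 in KO. The female groups did not overlap and the males did. Sel1l fell in females by 0.70 ± 0.18 (SE; limma adjusted p = 0.0474), a call held in 3 of the 12 fits without 1 mouse.

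Syvn1 encodes HRD1 itself. Its signals were 6.20, 6.15 and 6.22 in WT males, 5.60, 6.14 and 5.89 in KO males, 6.04, 6.28 and 6.42 in WT females and 5.81, 5.47 and 5.85 in KO females. KO mice lay below WT mice of their sex in both sexes, although every group except WT females was dim, so that no fold is given. Over all arrays Syvn1 fell by 0.42 ± 0.11 (SE; limma adjusted p = 0.0336), and the call was held in 4 of the 12 fits without 1 mouse. Edem1, which helps extract glycoproteins for degradation, differed by -0.68 ± 0.18 in females (limma adjusted p = 0.0568), and Derl1 and Derl3, channel components, by -0.66 ± 0.29 and -0.59 ± 0.49. In Derl3 the WT female mean rested on WT female 38 (6.42), beside 4.82 and 4.17 in the other WT females. Derl3 was dim in WT males, KO males and KO females.

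Set side by side, the 18 chaperone and degradation genes had a female difference below 0 in 18 of 18. It lay below the male difference in 18 of 18 too. Of all genes above the negative controls 57.7% and 57.8% did so. Only 16 of the 18 had a mean signal above the negative controls, and these gave 16 of 16 for both. A female difference below 0 with a male difference above 0 was seen in 11 of 18 and in 10 of these 16. Of all genes above the negative controls 9.59% showed it. Members were chosen as 1 pathway and share regulators and arrays, so these are counts and not a test. With the pancreas-positive WT females 25 and 27 both left out, the female median of the 18 went from -0.61 to -0.99, all 18 stayed below 0, and 0 of the 18 were called in females with 1 WT female remaining. Without WT female 38, which was the highest WT female for 13 of the 18, the median was -0.43 and 16 of 18 were below 0. Without KO male 19, the male median went from 0.04 to -0.12 and 8 of 18 were above 0, and without KO male 18 it went to 0.30 with 16 of 18 above 0. Without WT male 23 it was -0.04 with 7 of 18 above 0, without WT male 33 it was 0.20 with 12, and without WT male 17 it was 0.12 with 11. Quantile normalization and median centring kept 18 of 18 below 0 in females and put 9 of 18 above 0 in males. With the poly-A spike mean as a covariate 14 of 18 were below 0 in females, with a median of -0.40, and 12 of 18 were above 0 in males.

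**Figure D3:**
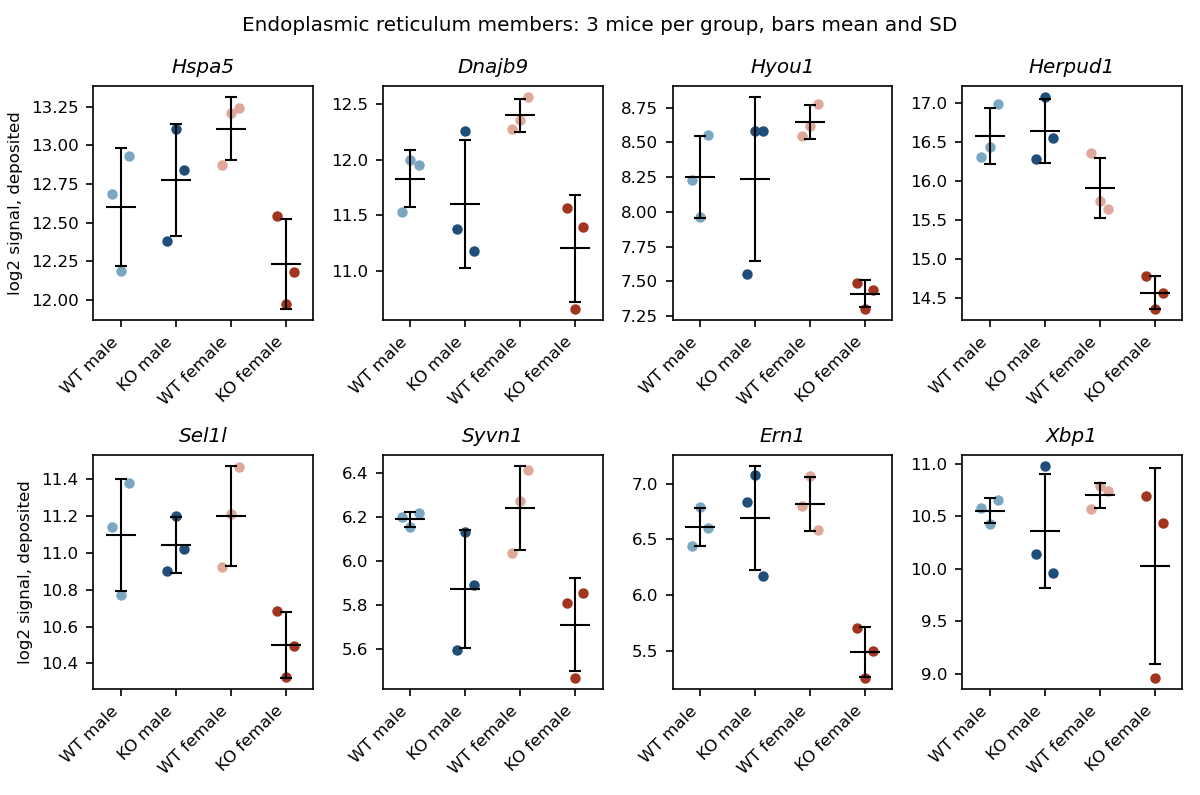
Deposited log2 signal (vertical axis, each gene on its own scale) in the 4 groups of 3 mice (horizontal axis) for 8 ER genes; points are mice and bars are the mean and SD. In Hspa5, Dnajb9, Hyou1, Herpud1, Sel1l, Syvn1 and Ern1 the KO females lie below all WT females, and in males the genotypes overlap except in Syvn1.

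The 9 genes with the ER stress element printed earlier all had female differences below 0, from -0.88 to -0.03 with a median of -0.48, and 0 of the 9 fell in females. The 18 genes with a window and none of the motifs had a female median of -0.32, and 5 of them fell in females (Dnajb9, Sel1l, Ern1, Atf5 and Shmt2). Herpud1, which fell in females, holds both the second form of the ER stress element and the amino acid core. Genes with and without these letters were thus among those that fell.

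Among the sensors and transducers, 4 measured, Ern1 fell and the other 3 were not called. Ern1 encodes IRE1 alpha, the kinase and RNase that splices Xbp1. Its signals were 6.80, 7.07 and 6.59 in WT females and 5.70, 5.25 and 5.499 in KO females, and 6.44, 6.79 and 6.61 in WT males and 6.83, 7.08 and 6.17 in KO males. KO females were the 3 lowest mice, with no overlap, and the males overlapped. Ern1 fell in females by 1.33 ± 0.22 (SE; limma adjusted p = 0.00931), a call held in 12 of the 12 fits without 1 mouse. Because Ern1 was dim in all KO females, the bound on this fall is at least 1.05-fold lower. Over all arrays it fell by 0.63 ± 0.16 (SE; limma adjusted p = 0.0340; held in 5 of the 12 fits), and the male difference was 0.08 ± 0.22. Its difference between the sexes had the smallest p of the 38 members, with an unadjusted p of 0.00122 and a limma adjusted p of 0.362.

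Eif2ak3 encodes PERK. It read 6.12, 6.18 and 6.20 in WT males, 6.09, 6.46 and 6.07 in KO males, 6.33, 6.18 and 6.22 in WT females and 6.21, 6.00 and 6.21 in KO females. All values lay between 6.00 and 6.46 and the groups overlapped, at the level of the negative controls, with WT males and KO females dim. The difference was -0.03 ± 0.08 (SE; limma adjusted p = 0.848).

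Atf6 read 9.15, 9.35 and 9.85 in WT males, 9.33, 10.27 and 8.89 in KO males, 9.14, 9.46 and 9.52 in WT females and 9.57, 8.72 and 9.16 in KO females, with overlap in both sexes. Its difference was -0.09 ± 0.24 (SE; limma adjusted p = 0.873). Xbp1, the transcript that IRE1 splices, differed by -0.43 ± 0.28 (SE; limma adjusted p = 0.414), with KO female 40 at 8.96 the lowest mouse and the others between 9.96 and 10.98. These arrays give the total Xbp1 transcript and not its spliced share.

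Of the 4 factors of the ATF4 axis 1 fell over all arrays (Atf5), and Atf4, Atf3 and Ddit3 were not called. Their median difference was 0.07 over all arrays, -0.20 in males and 0.34 in females.

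Atf5 encodes a factor of the ATF4 family that is itself raised by eIF2 phosphorylation and is abundant in liver. It read 8.81, 8.41 and 8.61 in WT males and 7.998, 8.11 and 7.95 in KO males, and 8.88, 8.43 and 8.86 in WT females and 8.24, 8.22 and 7.92 in KO females. Every KO mouse lay below every WT mouse, as in 3.63% of all genes. Atf5 fell by 0.59 ± 0.10 (SE), 1.51-fold lower (limma adjusted p = 0.00657), and the call held in 12 of the 12 fits without 1 mouse. The difference was -0.59 in males and -0.60 in females, where the female call held in 4 of the 12 fits. Without the 2 pancreas-positive WT females, which leaves 1 WT female, the Atf5 difference was -0.66 over all arrays and -0.73 within females.

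Atf4 read 6.04, 6.48 and 6.25 in WT males, 6.16, 6.75 and 5.75 in KO males, 5.80, 6.13 and 6.29 in WT females and 7.02, 6.87 and 6.79 in KO females. KO females were the 3 highest mice, and the males overlapped. The 95th percentile of the negative controls was 6.20 to 6.39 on WT female and 6.69 to 6.83 on KO female arrays. Atf4 thus lay near background, with KO female 69 below the 6.83 of its own array. The low-signal filter removed Atf4. The female difference was 0.82 ± 0.23 (SE; limma adjusted p = 0.0674) and the male one -0.03 ± 0.23, so neither passed. ATF4 is controlled largely at translation, which is not measured here.

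Ddit3 encodes CHOP, the factor most tied to death under prolonged ER stress. It read 5.23, 5.76 and 5.96 in WT males, 5.37, 4.97 and 5.51 in KO males, 5.82, 5.79 and 5.44 in WT females and 5.74, 5.60 and 5.31 in KO females. All groups were dim and overlapped. Neither its first feature (-0.25 ± 0.15, SE; limma adjusted p = 0.357) nor its second (-0.32 ± 0.11; limma adjusted p = 0.121) passed. Atf3, a stress-induced partner of ATF4, was dim in every group, with WT values of 3.996 to 4.37 and KO values of 4.20 to 6.19, of which the highest was KO female 40 (limma adjusted p = 0.109).

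The feedback and stress effectors, 6 measured, held the largest rise. Ddit4 encodes REDD1, an inhibitor of mTORC1 that ATF4, glucocorticoids, hypoxia and DNA damage are known to induce. It read 6.41, 5.73 and 6.10 in WT males and 7.99, 12.53 and 8.51 in KO males, and 5.45, 5.81 and 5.94 in WT females and 9.70, 7.66 and 9.31 in KO females. All 6 KO values lay above all 6 WT values, as in 2.34% of all genes, and KO male 19 stood far above the rest. Ddit4 rose by 3.38 ± 0.71 (SE; limma adjusted p = 0.0150), and the call held in 12 of the 12 fits without 1 mouse. Ddit4 was dim in WT females, so in females the bound is at least 6.05-fold higher. Within males (3.60 ± 1.004; limma adjusted p = 0.143) and within females (3.16 ± 1.004; limma adjusted p = 0.101) it did not pass alone. Without both pancreas-positive WT females the difference was 3.27 with a limma adjusted p of 0.0918.

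Chac1 encodes an enzyme that degrades glutathione and is a common marker of ATF4 and CHOP activity. It was dim in every group, with 4.55, 4.11 and 4.28 in WT males, 4.74, 5.54 and 4.82 in KO males, 4.09, 3.92 and 4.11 in WT females and 5.05, 4.24 and 4.66 in KO females. KO lay above WT within each sex, with KO male 19 again the highest, and the genotypes overlapped only across the sexes. Chac1 rose by 0.67 ± 0.17 (SE, limma adjusted p = 0.0347), a call held in 5 of the 12 fits without 1 mouse. Signals at the level of the negative controls give no fold. That level was itself higher on KO arrays, and its part in the rise was not tested. Trib3, a pseudokinase that restrains ATF4, and Ppp1r15a (GADD34), which returns eIF2 to its unphosphorylated state, were dim in every group and not called (-0.16 ± 0.08 and 0.14 ± 0.08). Nupr1 was likewise dim and not called. Sesn3, a sestrin, was not called on its feature of highest signal (-0.10 ± 0.18), while its second feature was lower in KO (-0.37 ± 0.08; limma adjusted p = 0.0152), so the features of this gene disagree.

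Of the 5 enzymes and the cystine transporter Slc7a11, 1 fell and 5 were not called. Shmt2 encodes the mitochondrial serine hydroxymethyltransferase, which feeds one-carbon units to folate and is known as an ATF4 target. It read 11.74, 11.96 and 11.59 in WT males and 10.56, 10.54 and 10.49 in KO males, and 10.80, 10.58 and 11.57 in WT females and 9.16, 8.64 and 9.11 in KO females. Every KO mouse lay below every WT mouse, although the highest KO male and the lowest WT female nearly met. Shmt2 fell by 1.62 ± 0.16 (SE), 3.08-fold lower (limma adjusted p = 0.000740). The fall was 1.23 ± 0.23 in males (limma adjusted p = 0.0400) and 2.02 ± 0.23 in females (limma adjusted p = 0.00211), and the difference between these had a limma adjusted p of 0.720. The call over all arrays held in 12 of the 12 fits without 1 mouse and without both pancreas-positive WT females (limma adjusted p = 0.00132). Averaged over the genotypes, Shmt2 was lower in females than in males, by -1.17 log2 (limma adjusted p = 0.0153). The means were 11.76 in WT males and 10.98 in WT females, and 10.53 in KO males and 8.97 in KO females.

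Asns encodes asparagine synthetase, a standard readout of ATF4. It read 8.70, 5.46 and 5.95 in WT males and 7.09, 10.39 and 7.31 in KO males, and 5.86, 5.56 and 6.01 in WT females and 6.80, 5.44 and 6.75 in KO females. The genotypes overlapped because WT male 17 was high and KO female 40 low, and KO male 19 was the highest mouse as for Ddit4 and Chac1. Asns was dim in WT females. WT male 23, WT male 33 and KO female 40 also lay below the negative controls' 95th percentile on their own arrays. The difference was 1.04 ± 0.69 (SE; limma adjusted p = 0.416). The other 4 genes, Psat1 and Phgdh of serine synthesis, the mitochondrial folate enzyme Mthfd2 and Slc7a11, were dim in all 4 groups with differences from 0.07 to 0.14, so their levels could not be followed.

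**Figure D4:**
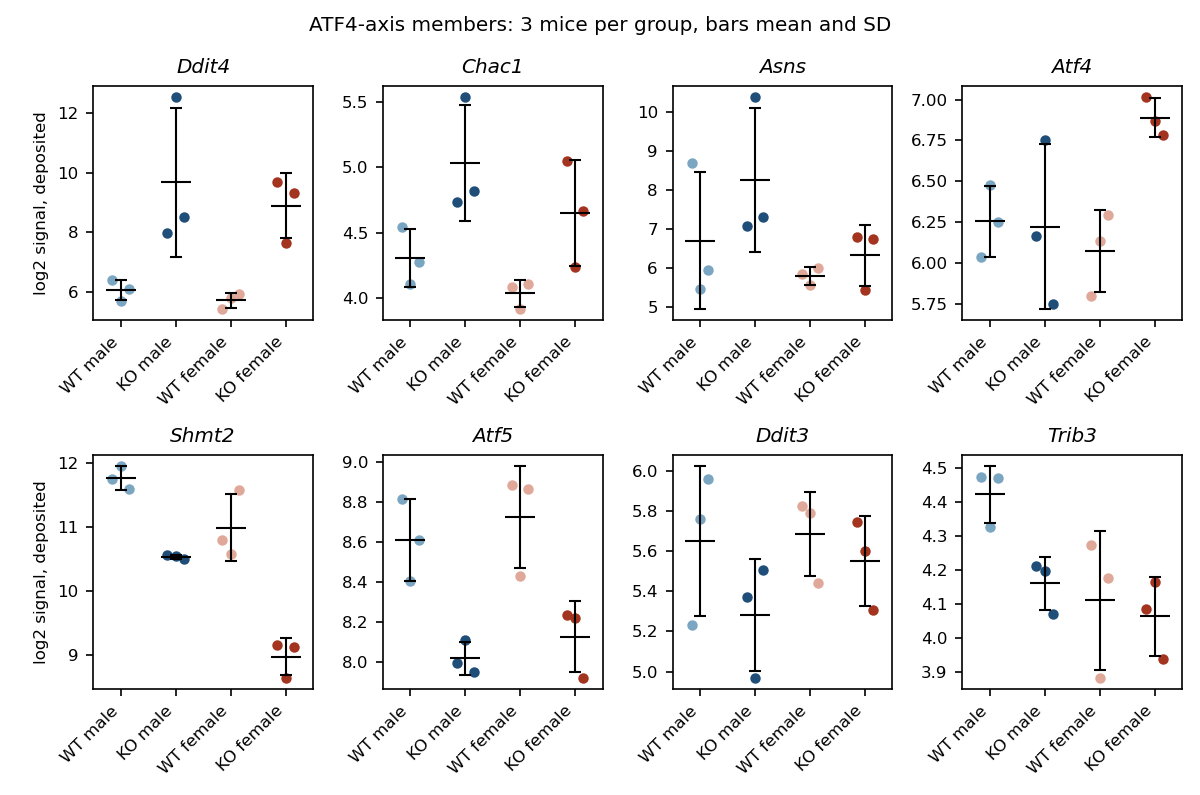
Deposited log2 signal (vertical axis, each gene on its own scale) in the 4 groups of 3 mice (horizontal axis) for 8 genes of the ATF4 axis; points are mice and bars are the mean and SD. Ddit4 is higher and Shmt2 and Atf5 are lower in every KO than in every WT mouse. Asns and Atf4 overlap, Asns being dim in WT females and Atf4 near the level of the negative controls. Chac1, Ddit3 and Trib3 lie at that level.

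The wider pathway was read from 4 lists of 95 further genes, of which 86 were measured, and gave 3 genes higher and 10 lower over all arrays. These are 3.49% and 11.6% of the 86, near the 5.81% and 8.25% of all genes, and the counts of each list are read against the same shares. Of 34 other ER folding, translocation and degradation genes, 1 rose (2.94%) and 5 fell (14.7%). The disulfide isomerase Txndc5 was 10.23 to 10.55 in WT and 9.31 to 10.21 in KO, without overlap, a fall of 0.68 ± 0.08 (SE; limma adjusted p = 0.00116). The proline isomerase Fkbp2 was 10.83 to 11.37 in WT and 9.75 to 10.59 in KO, also without overlap, a fall of 0.83 ± 0.15. Derl2 and Bet1 fell too, by 0.41 and 0.55, with Derl2 dim in every group and Bet1 in all but WT males. The other calls were Selenok, of the degradation machinery, which rose by 0.46 ± 0.10, and Dnajb2, dim in every group, which fell by 0.23 ± 0.05; both are named only to complete the count.

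Of 6 further membrane-bound bZIP factors and the proteases that cleave them, 1 fell (16.7%). Creb3l3 encodes CREBH, a liver factor that is processed like ATF6 and regulates lipid and acute-phase genes. It was 10.30 to 10.96 in WT and 9.67 to 10.04 in KO, without overlap, and fell by 0.72 ± 0.07 (SE; limma adjusted p = 0.000794), with -0.81 in males and -0.63 in females. Of 11 genes for eIF2, its kinases and its exchange factor, 3 fell (27.3%) and 0 rose. That share was above the 8.25% of all genes called lower and near the 24.2% of genes above the negative controls. The kinase PKR (Eif2ak2), which senses double-stranded RNA, was 7.25 to 7.83 in WT and 6.03 to 7.12 in KO and fell by 1.01 ± 0.14 (limma adjusted p = 0.00227). The eIF2 gamma subunit gene Eif2s3x fell by 0.75 ± 0.13 and the exchange factor subunit gene Eif2b5 by 0.35 ± 0.07. Eif2ak4 (GCN2), the sensor of uncharged tRNA, was dim and not called (0.16 ± 0.07).

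Of 35 further genes reported as ATF4 targets, 2 rose (5.71%) and 1 fell (2.86%), and 18 were dim in every group. The factor Cebpb was 7.48 to 8.39 in WT and 8.38 to 8.75 in KO, meeting only at the edge, and rose by 0.73 ± 0.14 (SE; limma adjusted p = 0.0105). Shmt1, the cytosolic counterpart of Shmt2, was 9.29 to 10.01 in WT and 7.79 to 9.54 in KO and fell by 1.10 ± 0.25 (limma adjusted p = 0.0208). Aldh18a1 was called higher by 0.19 ± 0.05 but was dim in every group, and Vldlr was not called (limma adjusted p = 0.0504). The median over the 35 was 0.08, beside 0.03 over all genes.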

How the data were processed

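Total RNA of 12 livers was measured, 1 array per mouse. The deposited values are log2 signals per feature, and the submitters' processing notes name Transcriptome Analysis Console as the authors' tool. For background correction, normalization and build, nothing was given in the sources used here. Every array shared a ceiling at 19.93, which no member reached. Of 72688 features 6732 controls were left out of the tests. Gene symbols came from the platform annotation table; 31258 of 65956 transcript features had 1 symbol, 1492 several and 33206 none.

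A model of 4 group means was fitted with limma 3.58.1 in R 4.3.3 (lmFit, eBayes, 8 residual degrees of freedom), and p-values were adjusted by Benjamini-Hochberg over all 65956 features at 0.05. No depth exists for arrays, whose number limits the precision. The fit was tested on simulated data.

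The members and lists were chosen with earlier results of these data known. Full values are given for members called in any comparison, and for Hspa5, Atf4, Ddit3 and the sensors. The wider lists are described by counts and up to 4 genes of smallest p; genes beyond that (Eif2ak4) were added as known sensors. Alternatives were quantile normalization, median centring, a low-signal filter, a trended robust prior, array weights, a poly-A covariate, averaged features, no sex term, single-sex fits, and leaving out mice.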

Additional observations from a re-analysis of the deposited data

Results flagged for a closer look

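Of 76 groups (38 members in the 6 mice of each genotype), 7 had 1 mouse far from the others by Dixon's ratio, which chance alone gives in about 1 in 20 groups. Among members with clear signal, Hsp90b1 was lowest in WT male 23, at 14.74 with the next mouse at 15.69. Dnajc3 was highest in KO male 19, at 14.15 with the next at 12.90. That mouse also led the KO males for 10 of the 12 chaperones, against 48.2% of genes above the negative controls. Creld2 was highest among KO mice in KO male 39, at 8.42 with the next at 7.90. Asns, which was dim in WT females, was highest among WT mice in WT male 17, at 8.70 with the next at 6.01. Ddit4 in the same liver read 6.41, also the highest WT value. A further 3 members were dim in every group: Atf3 stood at 6.19 in KO female 40 with the next at 4.88, Psat1 at 4.11 in WT female 27 with the next at 3.84, and Slc7a11 at 3.59 in WT male 23 with the next at 3.51.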

How the results depend on the processing

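No paired analysis was possible because no animal number occurs in more than 1 group. Leaving out 1 mouse at a time gave 1 to 3 members higher, 2 to 7 lower, 0 to 1 called in males and 2 to 10 in females; the difference between the sexes gave 0 calls in every alternative run. The 2 higher calls became 1 under quantile normalization, median centring, the low-signal filter, no sex term, and without KO male 19 and WT female 38, since Chac1 was lost or filtered. They became 0 with the poly-A covariate and 0 without WT females 25 and 27, which was added once the values were seen. The 4 lower calls became 7 under median centring, 0 with the poly-A covariate and 2 without those females. Under the low-signal filter 6 members were called lower over all arrays. Dnajb9, Hyou1, Herpud1 and Sel1l were added, and Ern1 and Syvn1 were filtered out. In males the 1 call became 3 with the low-signal filter, 0 with the trended robust prior and 0 with the covariate. In females the 7 became 4 with that prior, 1 with the covariate (Atf4) and 1 without those females. With the covariate, 14 of the 38 differences changed sign, 6 of them among the 18 chaperone and degradation genes; of the members described in full, Dnajb9 (0.22), Xbp1 (0.14), Ern1 (0.12), Atf6 (0.91) and Eif2ak3 (0.24) changed sign, and Ddit4 was 6.18 with a limma adjusted p of 0.265; the spike mean nearly separates the genotypes, and the cause was not tested. Leaving out 1 mouse gave -0.28 to 0.065 for Atf6, above 0 without WT male 33, KO male 39 or KO female 40, and -0.096 to 0.0029 for Eif2ak3, above 0 without KO male 39 or KO female 40. Allowing 1 mismatch raised the promoter counts to 13 for the ER stress element (37.1%, against 1.5% of all windows), 9 for its second form (25.7% against 1.16%), 10 for the unfolded protein response element (28.6% against 16.2%) and 13 for the amino acid core (37.1% against 50.6%, so that its share fell below that of all windows). Counted per gene, the shares over all genes with 1 mismatch were 1.72%, 1.31%, 18.1% and 54.3% in the same order. The median of all genes was 0.03 as deposited, -0.03 after quantile normalization and -0.04 after centring. The 10 members dim in all groups, Ddit3, Trib3 and Atf3 among them, could not be followed below the negative controls.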
